A study of Mus musculus with 12 samples.

Results

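Myl2, Myl3, Myl4 and Myl7 are the 4 myosin light chain genes that differ between the chambers of the adult mouse heart, and their transcripts were followed across 4 arteries. They were chosen by name: each had a probe set with 1 gene symbol, a gene with several such probe sets was to be represented by the brightest of them, and each of the 4 had just 1. They are 4 of the 19938 genes so measured. A sarcomeric myosin carries on each heavy chain an essential light chain, which stiffens the lever arm, and a regulatory light chain, whose phosphorylation tunes contraction. In the adult mouse heart the ventricles use Myl2 as regulatory and Myl3 as essential chain, and the atria use Myl7 as regulatory and Myl4 as essential chain. Smooth muscle and other cells build their myosins from other light chains, with Myl9 as the regulatory chain typical of smooth muscle.

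Total RNA was measured on Affymetrix arrays in the coronary artery, the ascending aorta, the descending aorta and the superior mesenteric artery of untreated wild-type C57BL/6 mice aged 8 weeks, with 3 arrays per vessel and 12 in all. The series asks how vessels of different embryonic origin differ in expression. Each array is labelled a biological replicate, but the labels do not say whether a replicate is 1 animal or a pool, so p-values measure the spread among these samples. Values are the deposited log2 values, in which a difference of 1 is a 2-fold difference. The median gene stood at 4.04 to 4.18 in the 12 arrays, and the table holds no detection call, so a low value could not be told from background.

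Several arrays had high means for genes known from other tissues, and the source of those transcripts was not tested. The coronary artery arrays were high in heart muscle genes: the mean of 14 cardiac sarcomere genes was 8.99 to 9.34 there, against 4.31 to 5.70 in the other 9 arrays. The mean of 6 epicardial and mesothelial genes was also highest there, at 7.61 to 8.12, against 3.87 to 7.29 in the others. The mean of 9 smooth muscle genes was 5.24 to 5.85 in the coronary artery arrays, against 6.58 to 9.58 in the others, and that of 7 endothelial genes was 6.71 to 7.13, against 5.28 to 7.77. Ascending aorta replicate 1 stood apart by B cell genes (mean 8.31, where its vessel's other arrays had 4.30 and 4.60), descending aorta replicate 1 by heart muscle genes (5.70, against 4.52 and 4.31) and superior mesenteric artery replicate 3 by pancreatic acinar genes (9.70, against 5.49 and 4.27). In superior mesenteric artery replicate 1 the heart muscle genes were at 5.43, against 4.40 and 4.91 in replicates 2 and 3. Replicates 2 and 3 of that vessel also had B cell genes at 7.55 and 7.16, against 5.29 in replicate 1. T cell genes were high in ascending aorta replicate 1 too (mean 7.78, against 3.885 and 4.89). Their mean was 6.08 and 6.04 in replicates 2 and 3 of the superior mesenteric artery, against 4.66 in replicate 1. In coronary artery replicate 2 it was 5.54, against 4.01 and 3.74 in replicates 1 and 3. The mean of 7 brown adipocyte genes was 7.18 to 8.98 in the ascending and descending aorta arrays. It was 6.20 to 6.48 in the coronary artery and 4.12 to 5.19 in the superior mesenteric artery. The coronary mean joined unlike genes, as seen after their values were known. Cox8b and Cox7a1 were at 12.25 and 11.13 in their lowest coronary array, near the highest other array (12.33 and 11.25). Ucp1, Cidea, Elovl3 and Dio2 were at 3.05, 4.26, 2.32 and 3.38, against 11.59, 8.72, 6.59 and 6.42. Ppargc1a was at 5.76, against 6.03. In RNA of whole tissue pieces, fewer cells of a type and less RNA per cell cannot be told apart.

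The bases before the annotated start of a ventricular and an atrial chain are shown because Myl3 and Myl7 differ by chamber in the heart and yet were high in the same arrays here. Each window holds the 250 bases upstream of the start on the gene's own strand, from RefSeq (GRCm38.p6), and ends at the base before the annotated gene. Capitals mark matches, on either strand, to TATAAA, to the CArG box bound by serum response factor, to the MEF2 site, to the GATA motif and to the MCAT element, whose letters are CATTCC. The GATA motif was searched as AGATAA and as AGATAG, as well as in the form TGATAA and in the form TGATAG. None of the capital matches overlap.
Myl3, chr9:110763428-110763677, plus strand: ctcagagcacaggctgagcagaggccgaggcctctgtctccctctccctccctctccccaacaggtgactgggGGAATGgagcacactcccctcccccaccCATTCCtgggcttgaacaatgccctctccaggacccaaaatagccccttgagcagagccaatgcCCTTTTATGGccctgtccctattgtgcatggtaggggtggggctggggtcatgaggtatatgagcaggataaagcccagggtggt
Myl7, chr11:5898783-5899032, minus strand: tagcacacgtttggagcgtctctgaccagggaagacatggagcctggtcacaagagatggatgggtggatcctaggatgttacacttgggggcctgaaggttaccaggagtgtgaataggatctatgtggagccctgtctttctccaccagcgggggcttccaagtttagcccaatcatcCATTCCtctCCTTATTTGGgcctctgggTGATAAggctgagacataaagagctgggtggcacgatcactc

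Both windows hold a CArG box, which 1.47% of all 32817 RefSeq windows of this length hold. It begins 85 bases before the start in Myl3 and 61 bases before it in Myl7. MCAT letters, found in 12.6% of windows, stand in Myl3 at 177 and 149 bases before the start and in Myl7 at 70 bases before it. The Myl7 window has a GATA motif at 42 bases before the start, and 26.6% of windows have one. Neither window holds TATAAA, which 12.4% of windows hold, or a MEF2 site, which 2.92% hold, and each has 1 E-box (CANNTG), as 66.2% of windows do. The Myl4 window has no match to any of the motifs and a GC content of 63.6%, against 52.4% in the median window. Of the 2 Myl2 windows, neither has a CArG box, a MEF2 site or MCAT letters. One has a GATA motif at 211 bases before its start. The other has TATAAA, on the opposite strand, at 216 bases before its start. Myl2 and Myl4 have several annotated transcripts, and other starts of these genes were not analysed here. Both Myl2 windows lie at the upstream end of the annotated gene, so the absences in them do not describe a start further downstream. These matches describe letters and not binding.

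All 4 light chains were far higher in the coronary artery than in each other vessel, by 4.56 to 8.82 on the log2 scale, and none passed the test between any 2 of the other vessels. Every coronary artery array lay above all 9 other arrays for each of the 4 genes, which holds for 3.49% of all genes. Counted against 1 vessel at a time, coronary arrays all lay above those of the ascending aorta for 11% of genes, above those of the descending aorta for 9.88% and above those of the superior mesenteric artery for 11.3%. In limma's moderated F test across the 4 vessels, 4 of 4 light chains passed at an adjusted p under 0.05, as did 4.72% of all genes. Higher in the coronary artery at that threshold were 4 of 4 against the ascending aorta (1.87% of all genes), 4 of 4 against the descending aorta (1.53%) and 4 of 4 against the superior mesenteric artery (2.71%). Of the 6 epicardial and mesothelial genes, 4, 1 and 1 were higher in these comparisons and 0 were lower. The means of the 14 cardiac sarcomere genes and of the epicardial and mesothelial genes were high in the same 3 arrays, and their part in the coronary light chain values was not tested.

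**Figure D1:**
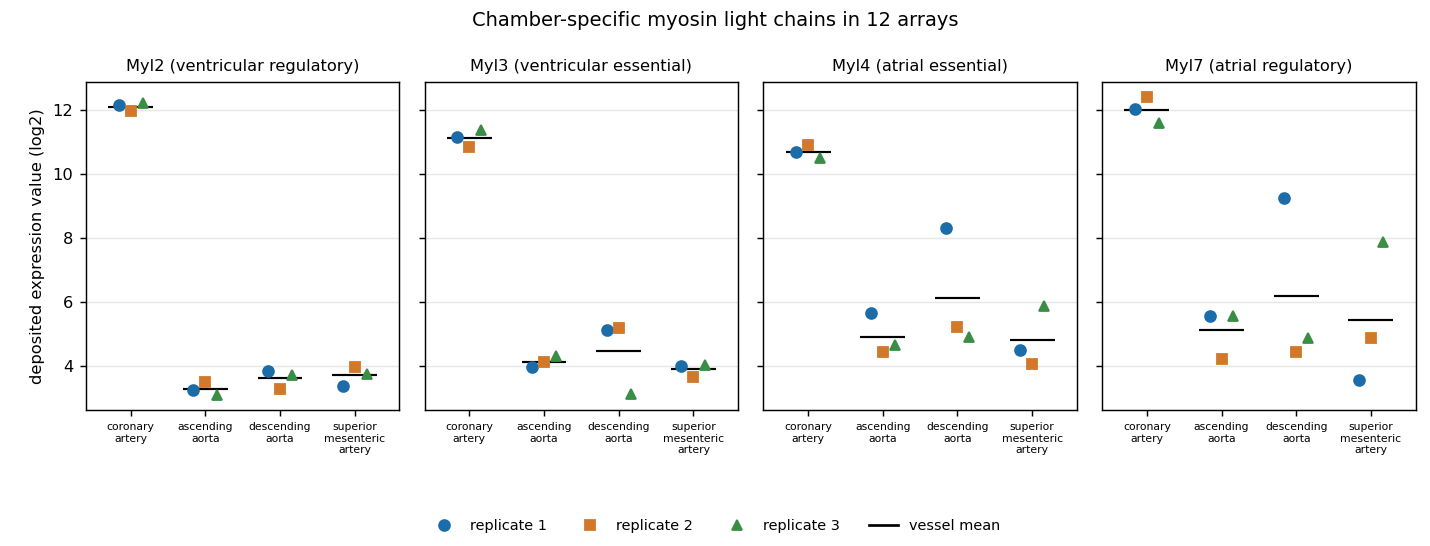
Deposited log2 values (vertical axis) of the 4 light chain genes, 1 panel per gene, in the 12 arrays grouped by vessel; symbols give the replicate and bars the vessel mean. The 3 coronary artery arrays sit between 10.49 and 12.40, above every other array of the same gene, and among the remaining arrays replicate 1 of the descending aorta and replicate 3 of the superior mesenteric artery stand high for Myl4 and Myl7.

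Myl2, the ventricular regulatory chain, was the most sharply divided of the 4. Its log2 value was 12.13, 11.94 and 12.20 in the coronary artery, against 3.22, 3.49 and 3.09 in the ascending aorta, 3.83, 3.27 and 3.69 in the descending aorta and 3.37, 3.95 and 3.75 in the superior mesenteric artery. The 9 arrays of the other vessels spanned only 0.86, all below the median gene of their arrays, and the lowest coronary array lay 7.99 above the highest of them. Vessel means were 12.09 ± 0.135 in the coronary artery, 3.27 ± 0.20 in the ascending aorta, 3.60 ± 0.29 in the descending aorta and 3.69 ± 0.30 in the superior mesenteric artery (SD, n = 3 each). The difference was 8.82 ± 0.21 (SE) against the ascending aorta, 8.49 ± 0.21 against the descending aorta and 8.40 ± 0.21 against the superior mesenteric artery, with limma adjusted p of 2.02e-10, 3.21e-10 and 3.68e-10 in that order. Among the other 3 vessels the order superior mesenteric artery, descending aorta, ascending aorta rested on gaps within the spread of their arrays.

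Myl3, the ventricular essential chain, followed Myl2 closely in the coronary artery and less closely elsewhere. It stood at 11.15, 10.84 and 11.36 in the coronary artery, against 3.95, 4.11 and 4.29 in the ascending aorta, 5.10, 5.19 and 3.10 in the descending aorta and 3.98, 3.65 and 4.03 in the superior mesenteric artery. The descending aorta held both the highest and the lowest of the 9 non-coronary arrays, replicates 1 and 2 lying about 2 above replicate 3. The lowest coronary array lay 5.66 above the highest of these 9. The coronary mean of 11.12 ± 0.26 exceeded the ascending aorta mean of 4.12 ± 0.17 by 7.00 ± 0.43, the descending aorta mean of 4.46 ± 1.18 by 6.66 ± 0.43 and the superior mesenteric artery mean of 3.88 ± 0.21 by 7.23 ± 0.43 (SD, n = 3 each, then SE). The limma adjusted p values were 1.35e-06, 2.26e-06 and 1.13e-06 in that order. Leaving out descending aorta replicate 3 put the difference from the descending aorta at 5.97, and leaving out replicate 2 put it at 7.02.

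Myl4, the atrial essential chain, was also high in every coronary array but varied more outside the coronary artery. The coronary arrays gave 10.68, 10.89 and 10.49, against 5.63, 4.43 and 4.64 in the ascending aorta, 8.29, 5.19 and 4.88 in the descending aorta and 4.49, 4.06 and 5.85 in the superior mesenteric artery. Descending aorta replicate 1, where heart muscle genes were also high, was the nearest to the coronary artery, 2.20 below its lowest array. Superior mesenteric artery replicate 3 was the highest of its vessel. Vessel means were 10.69 ± 0.20 in the coronary artery, 4.90 ± 0.64 in the ascending aorta, 6.12 ± 1.89 in the descending aorta and 4.80 ± 0.94 in the superior mesenteric artery (SD, n = 3 each). The coronary artery was higher by 5.79 ± 0.74 than the ascending aorta, by 4.56 ± 0.74 than the descending aorta and by 5.89 ± 0.74 than the superior mesenteric artery (limma adjusted p of 0.000675, 0.00394 and 0.000557 in that order). Without descending aorta replicate 1 the difference from the descending aorta was 5.65, and without replicate 3 it was 3.94. Without superior mesenteric artery replicate 3 the difference from that vessel was 6.41.

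Myl7, the atrial regulatory chain, had the widest spread outside the coronary artery. The values were 12.02, 12.40 and 11.57 in the coronary artery, against 5.56, 4.21 and 5.56 in the ascending aorta, 9.24, 4.42 and 4.86 in the descending aorta and 3.56, 4.86 and 7.86 in the superior mesenteric artery. The 9 non-coronary arrays spanned 5.68, against 4.23 for Myl4, 2.09 for Myl3 and 0.86 for Myl2. Again descending aorta replicate 1 was nearest to the coronary arrays, 2.33 below the lowest of them, with superior mesenteric artery replicate 3 next. The coronary mean was 11.99 ± 0.42, against 5.11 ± 0.78 in the ascending aorta, 6.17 ± 2.66 in the descending aorta and 5.43 ± 2.20 in the superior mesenteric artery (SD, n = 3 each). The differences were 6.89 ± 1.18, 5.82 ± 1.18 and 6.57 ± 1.18 in that order of vessels, with limma adjusted p of 0.00694, 0.0164 and 0.00779. The call against the descending aorta depended on single arrays. It was lost without coronary artery replicate 1, 2 or 3 (differences of 5.81, 5.62 and 6.03, limma adjusted p of 0.0669, 0.0768 and 0.0547) and without descending aorta replicate 2 or 3 (4.94 and 5.17, limma adjusted p of 0.102 and 0.0827). Without descending aorta replicate 1 it was 7.35 with a limma adjusted p of 0.00142. Against the superior mesenteric artery the difference was 7.78 without replicate 3 of that vessel and 5.64 without replicate 1, and it passed in both cases.

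**Figure D2:**
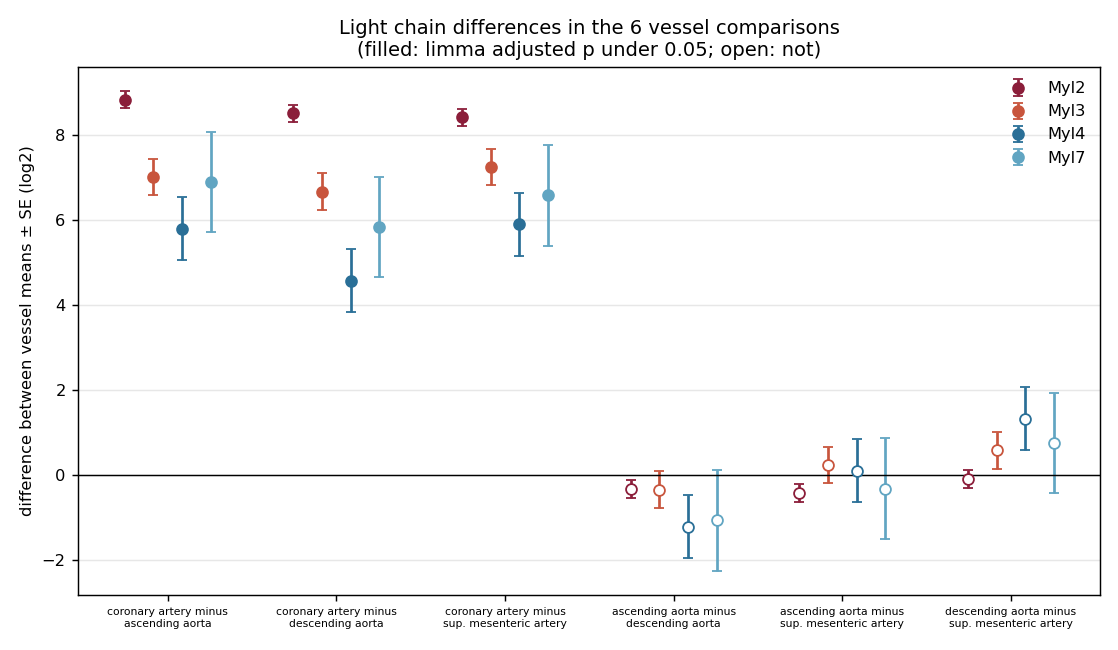
Differences between vessel means (vertical axis, log2) for the 4 light chains in the 6 vessel comparisons; points are estimates, bars 1 standard error, and filled points passed limma's adjusted p of 0.05. All 12 differences from the coronary artery are filled and lie between 4.56 and 8.82, and all 12 differences among the other vessels are open.

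Between the other 3 vessels, 0 of 4 light chains passed in each comparison, and 0 of 4 had an unadjusted limma p under 0.05. Over all genes 0.015% passed between ascending and descending aorta, 0.176% between ascending aorta and superior mesenteric artery and 3.2% between descending aorta and superior mesenteric artery. The largest of these 12 differences were those of Myl4, at 1.32 ± 0.74 for the descending aorta minus the superior mesenteric artery (limma adjusted p = 0.469) and -1.22 ± 0.74 for the ascending minus the descending aorta (limma adjusted p = 0.628). With standard errors of 0.74 for Myl4 and 1.18 for Myl7, differences of 2-fold could not be seen at this number of arrays. One call appeared without descending aorta replicate 3, where Myl3 was higher in the descending aorta than in the superior mesenteric artery by 1.26 (limma adjusted p = 0.0158), against 0.58 with all arrays.

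Descending aorta replicate 1 stood out from its vessel more for the atrial chains than for the ventricular ones. Its Myl7 value was 4.60 above the mean of the other 2 descending aorta arrays, which ranked 2 among the 19938 genes, and its Myl4 value was 3.26 above, which ranked 7. Of all genes, 0.0401% were at least 3 above in that array. Myl3 was 0.95 above that mean, which ranked 110, but descending aorta replicate 2 was as high, and Myl2 was 0.35 above, which ranked 2395. Among the 14 sarcomere genes, 6 were at least 1 above, as were 0.431% of all genes. They included Actc1, the cardiac alpha-actin (7.85, against 4.60 and 4.14 in the other 2 arrays), Tnni3, the cardiac troponin I (7.85, against 5.26 and 5.53), and Csrp3, the muscle LIM protein (6.52, against 3.29 and 3.21). Of 12 measured atrial genes, 2 were at least 1 above: Sln, the inhibitor of the sarcoplasmic reticulum calcium pump known from atria (5.04, against 3.04 and 3.26), and Mybphl, a myosin binding protein of the atria (4.92, against 3.43 and 3.69). Nppa, the atrial natriuretic peptide gene, was not (4.17, against 3.70 and 4.27). The part of these transcripts in the light chain values was not tested.

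Superior mesenteric artery replicate 3 also had its atrial chains further above its vessel than its ventricular ones. Its Myl7 value was 3.65 above the mean of the other 2 arrays of that vessel, rank 29 of all genes, and Myl4 was 1.58 above, rank 93, whereas Myl3 and Myl2 were 0.22 and 0.09 above. Of all genes, 0.261% were at least 2 above in that array, where all 5 pancreatic acinar genes were at least 1 above. Among the 12 measured atrial genes 0 were at least 1 above, and their median was 0.09 above. Of the 14 sarcomere genes, 2 were at least 1 above, as were 1.5% of all genes: Myoz2, a Z-disc protein of heart and slow muscle (5.27, against 3.33 and 2.79), and Csrp3 (4.62, against 3.40 and 3.37). Replicate 1 of the same vessel had the lowest Myl7 of all 12 arrays and Myl2, Myl3 and Myl4 at 3.37, 3.98 and 4.49. There 5 of the 14 sarcomere genes were at least 1 above the mean of the other 2 arrays, as were 3.55% of all genes, and the list's median was 0.17 above. The 5 were Actc1 (9.39), Tnnt2, the cardiac troponin T (10.34), Tpm1 (9.90), Myom1 (6.87) and Ldb3, a Z-disc protein (6.10), whereas Tnni3 (4.91), Csrp3 (3.40), Tnnc1 (3.80) and Myh6 (2.79) were not. That array also had all 9 smooth muscle genes at least 1 above the mean of its vessel's other 2 arrays. The part of any of these transcripts in the light chain values was not tested.

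Inside the coronary artery the atrial and the ventricular chains were ordered differently over the 3 arrays. Myl4 and Myl7 were both highest in replicate 2 and lowest in replicate 3, Myl4 at 0.20 above and 0.19 below the coronary mean and Myl7 at 0.40 above and 0.43 below it. Myl2 and Myl3 were both highest in replicate 3 and lowest in replicate 2, Myl2 at 0.11 above and 0.15 below and Myl3 at 0.24 above and 0.27 below. Each of these orders is common, as 17.4% of all genes had the first and 18.4% the second. Of the 14 sarcomere genes, 10 had the order of Myl2 and Myl3 and 0 had that of the atrial chains. Of the 12 atrial genes, 4 had the order of Myl4 and Myl7 (Mybphl, Kcnj3, Nr2f2 and Tbx5) and 1 had that of Myl2 and Myl3 (Bmp10). Lowest in replicate 1 were 3 that were highest in replicate 2 (Nppa, Sln and Kcnj5) and 3 that were highest in replicate 3 (Gja5, Kcna5 and Dkk3). Nr2f1 was highest in replicate 1 and lowest in replicate 3. Sln had values of 6.03, 8.47 and 6.16. Of the 10 ventricular genes, 4 had the order of Myl2 and Myl3 (Myh7, the phospholamban gene Pln, Lbh and Fhl2) and 2 had that of Myl4 and Myl7 (Hey2 and Hand1). Another 3 were highest in replicate 3 but lowest in replicate 1 (Irx3, Irx4 and Kcnip2). Irx5 was highest in replicate 1 and lowest in replicate 2. Apart from the light chains these genes were named after their values were seen, and no test was made within 3 arrays.

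**Figure D3:**
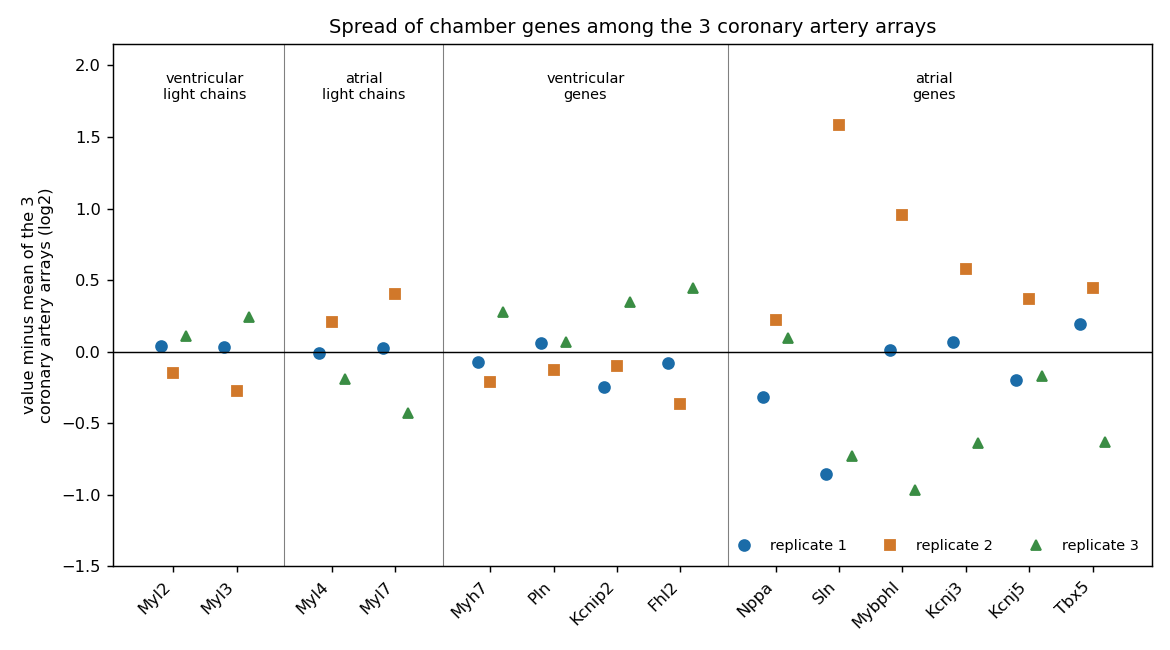
Values in the 3 coronary artery arrays minus their mean (vertical axis, log2) for the ventricular and atrial light chains and for the ventricular and atrial list genes that were higher in the coronary artery in all 3 comparisons; symbols give the replicate. Replicate 2 (squares) is highest for Myl4, Myl7 and all 6 atrial genes shown, and lowest for Myl2, Myl3, Myh7, Pln and Fhl2. The ventricular gene Kcnip2 is lowest in replicate 1. Of the atrial list genes not shown, Nr2f2 is highest in replicate 2, and Gja5, Kcna5, Dkk3, Bmp10 and Nr2f1 are not. Among all genes, 17.4% are highest in replicate 2 and lowest in replicate 3, and 14.4% are highest in replicate 2 and lowest in replicate 1. Replicate 2 also has 4 of 5 T cell genes at least 1 above the mean of the other 2 coronary arrays, as are 0.762% of all genes.

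The other myosin light chains showed no step in the coronary artery of the size seen for the 4 chamber chains. Of 8 measured, 0 passed limma's test in the coronary artery against either aorta, where 1 was higher and 2 were lower at an unadjusted p under 0.05 in each case, and 1 was higher than in the superior mesenteric artery: Myl12a, a non-muscle regulatory chain, by 0.92 ± 0.22 (limma adjusted p = 0.0419). That call was lost when any 1 coronary, descending aorta or superior mesenteric artery array was left out. For Myl12a the lowest coronary array, at 8.33, also lay above the highest other array, at 8.03. The median difference of the 8 was -0.17 against the ascending aorta, -0.14 against the descending aorta and -0.08 against the superior mesenteric artery, and that of all genes lay between -0.0179 and -0.0042. Myl9, the smooth muscle regulatory chain, had 8.67, 8.77 and 7.44 in the coronary artery, against 8.45 to 11.89 in the other arrays, with overlap. The skeletal muscle chains Myl1 and Mylpf stayed between 2.32 and 4.49 in all 12 arrays. Myl6 and Myl12b, chains of smooth and non-muscle myosin, were between 9.78 and 11.67 in all arrays.

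Of the 10 sarcomeric myosin heavy chains, 2 were higher in the coronary artery in each comparison and 0 were lower. Myh6, the main heavy chain of the adult mouse heart, had 9.01 to 9.56 in the coronary artery, against 2.49 to 4.58 elsewhere. It was higher by 6.42 ± 0.41 than in the ascending aorta, by 5.77 ± 0.41 than in the descending aorta and by 6.37 ± 0.41 than in the superior mesenteric artery (limma adjusted p of 1.79e-06, 4.58e-06 and 2.21e-06 in that order). Myh7, the slow and fetal ventricular heavy chain, had 4.34 to 4.83 in the coronary artery, against 3.20 to 3.75 elsewhere. It was higher by 0.93 ± 0.18, 1.25 ± 0.18 and 1.09 ± 0.18 in the same order (limma adjusted p of 0.0146, 0.00147 and 0.00396). The count of 2 heavy chains against the ascending aorta was 1 without ascending aorta replicate 2 and 1 without coronary artery replicate 3. The heavy chain of smooth muscle, Myh11, went the other way against the ascending aorta (-4.10 ± 0.84, limma adjusted p = 0.0226) and the superior mesenteric artery (-3.49 ± 0.84, limma adjusted p = 0.0426), and of the 9 smooth muscle genes, Myh11 included, 4 were lower against the ascending aorta, 1 against the descending aorta and 2 against the superior mesenteric artery. Of all genes 0.602%, 1.61% and 0.527% were lower in the coronary artery in these 3 comparisons.

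**Figure D4:**
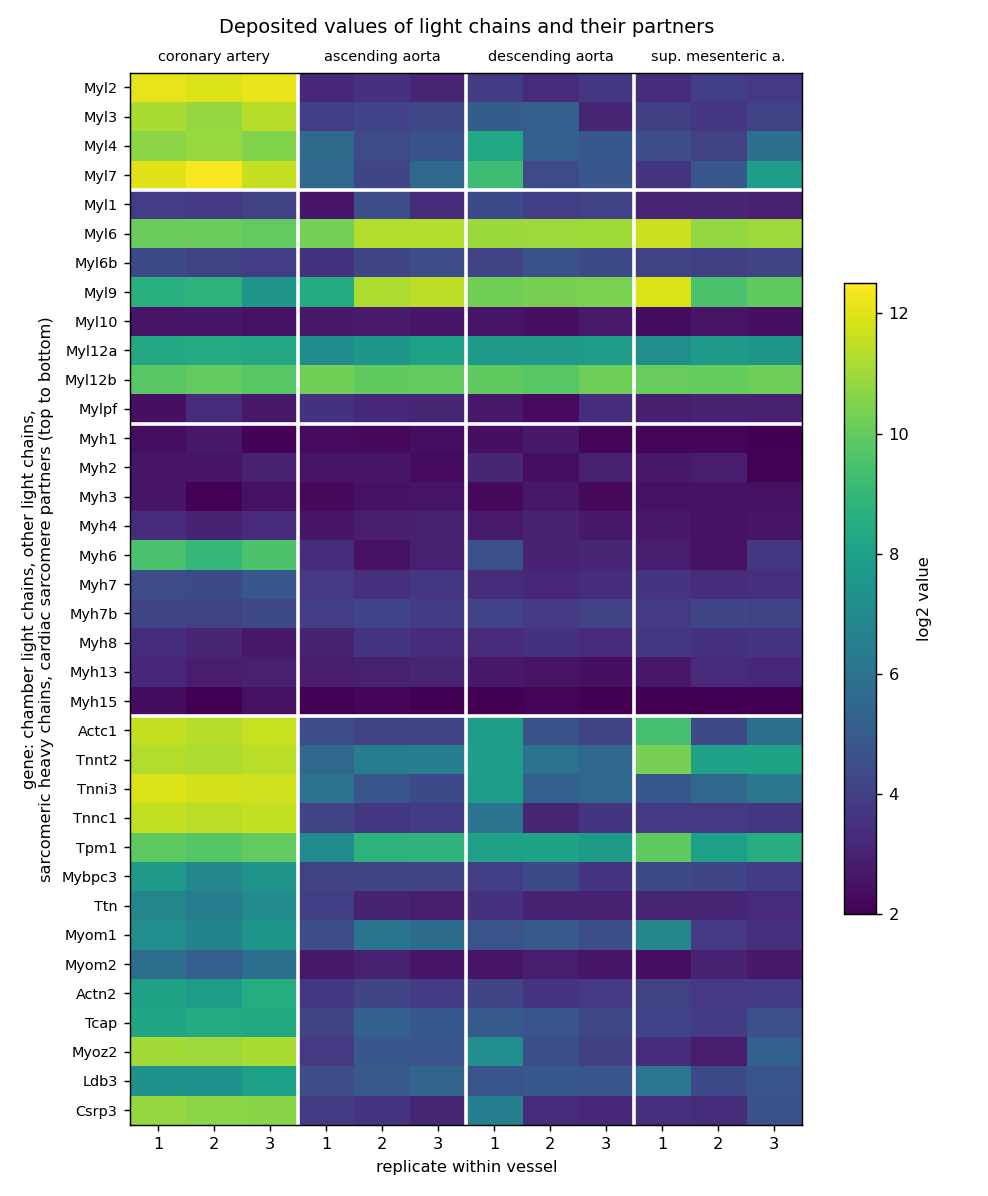
Deposited log2 values (colour) of the 4 chamber light chains, 8 other light chains, 10 sarcomeric heavy chains and 14 cardiac sarcomere genes (rows) in the 12 arrays (columns, grouped by vessel). Colours are to be read along a row, since levels of different probe sets are not comparable: the coronary artery columns are bright for the 4 chamber light chains, Myh6 and most sarcomere genes, while the other light chains show no such step between vessels.

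Enzymes that act on the regulatory light chains moved less. Of 10 measured kinase and phosphatase genes, 2, 2 and 1 were higher in the coronary artery than in the ascending aorta, the descending aorta and the superior mesenteric artery, and 1, 0 and 0 were lower. Mylk3, the cardiac kinase that phosphorylates the ventricular regulatory chain, was at 6.77 to 6.95 in the coronary artery, against 3.46 to 4.14 elsewhere, and was higher by 2.91 ± 0.20, 3.19 ± 0.20 and 3.09 ± 0.20 (limma adjusted p of 3.1e-06, 1.99e-06 and 2.32e-06 in that order). Ppp1r12b, a targeting subunit of myosin phosphatase, was higher by 1.42 ± 0.29 than in the ascending aorta (limma adjusted p = 0.0225) and by 1.48 ± 0.29 than in the descending aorta (limma adjusted p = 0.0139). The count of higher genes depended on single arrays. Against the ascending aorta it was 1 without ascending aorta replicate 2 or coronary artery replicate 1 or 3, and against the descending aorta it was 1 without coronary artery replicate 3 or descending aorta replicate 1 or 3. Against the superior mesenteric artery it was 3 without ascending aorta replicate 1 and 2 without ascending aorta replicate 2 or 3 or coronary artery replicate 2. Rock1, a kinase that inhibits the phosphatase, was lower than in the ascending aorta (-1.12 ± 0.22, limma adjusted p = 0.0153). The smooth muscle kinase Mylk differed by -1.21, -0.95 and -1.58 and did not pass.

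Transcripts of sarcomere proteins that work beside these light chains were higher in the coronary artery for 12 of 14 genes against the ascending aorta, 12 of 14 against the descending aorta and 11 of 14 against the superior mesenteric artery, with 0 lower. Their median difference was 3.88, 3.96 and 3.87 in that order. Against the ascending aorta the largest were Tnnc1, the cardiac troponin C (7.58 ± 0.54, limma adjusted p = 3.37e-06), Actc1 (7.27 ± 1.09, limma adjusted p = 0.00249), Csrp3 (7.17 ± 0.69) and Tnni3 (6.80 ± 0.59). Tpm1, the alpha-tropomyosin gene (1.66, 1.92 and 1.08), and Myom1, an M-band protein gene (1.70, 2.40 and 2.44), passed in none of the 3 comparisons, and Tnnt2 did not pass against the superior mesenteric artery (2.50 ± 0.65, limma adjusted p = 0.0612), as seen after their values were known. Of 12 cardiac transcription factor genes, 3 were higher in each comparison. Against the ascending aorta they were Tbx20 (3.26 ± 0.27), Tbx5 (3.17 ± 0.31) and Gata4 (1.69 ± 0.24). Against the descending aorta the count was 5 without ascending aorta replicate 1. Of 15 skeletal muscle genes, 2 were higher in each comparison, by 4.22 ± 0.35 for Ckm, the muscle creatine kinase, and by 1.17 ± 0.22 for Tnnt1, the slow skeletal troponin T, against the descending aorta.

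Some other genes known from the atria and from the ventricles were also higher in the coronary artery. Of 12 measured atrial genes, 6 were higher in each of the 3 comparisons and 0 were lower, with medians of 1.26, 1.27 and 1.55. Against the ascending aorta they were led by Nppa (7.22 ± 0.27, limma adjusted p = 2.61e-08), Mybphl (4.08 ± 0.45), Sln (3.54 ± 0.62), Tbx5 (3.17 ± 0.31) and Kcnj3, a subunit of the acetylcholine-gated potassium channel (2.65 ± 0.26). Of 10 ventricular genes, 5, 5 and 4 were higher and 0 were lower, with medians of 0.53, 0.81 and 0.48. The leading ones were Pln (7.13 ± 0.82, limma adjusted p = 0.000278), Fhl2, a LIM domain protein of the heart (5.27 ± 0.32), Kcnip2, a subunit of the transient outward potassium channel (1.30 ± 0.24), Myh7, and Irx4, a ventricular transcription factor (0.85 ± 0.20, limma adjusted p = 0.0489). At an unadjusted limma p under 0.05, 1 atrial gene was lower against the ascending aorta, 2 against the descending aorta and 0 against the superior mesenteric artery. For ventricular genes these counts were 1, 1 and 0. The ventricular count of higher genes against the ascending aorta was 3 without ascending aorta replicate 2 and 2 without coronary artery replicate 3. Against the descending aorta it was 3 without coronary artery replicate 3 and 3 without any 1 of the descending aorta arrays. Of both lists, 0 genes passed limma's test between ascending and descending aorta or between ascending aorta and superior mesenteric artery. In these comparisons 3 and 5 had an unadjusted limma p under 0.05, as did 1922 and 1439 of all 19938 genes. Between descending aorta and superior mesenteric artery 1 passed, as did 3.2% of all genes. It was Gja5, a gap junction gene of atria and arterial endothelium, which was higher in the descending aorta by 3.86 ± 0.82 (limma adjusted p = 0.0226).

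The genes most like each light chain over the 12 arrays included genes of the sarcomere and of muscle energy supply, where likeness is the Pearson r among the 3518 genes with an SD of at least 0.5. The 3 coronary arrays stand apart from the rest for these genes and largely set r, and all arrays share 1 table and normalization. Myl2 was most like Nppa (r = 0.995), Mlf1 (0.994), Lmod2, which sets thin filament length (0.993), Actn2, the sarcomeric alpha-actinin (0.992), and Ckmt2, the mitochondrial creatine kinase of muscle (0.992). Its fellow Myl3 ranked 34 on that scale, and Myl4 and Myl7 ranked 124 and 158. Myl3 was most like Ckmt2 (0.994), Hrc, a calcium-binding protein of the sarcoplasmic reticulum (0.993), Lmod2 (0.987), Nrap (0.987) and Fitm1 (0.985). Myl4 was most like Cox6a2, the muscle form of a cytochrome oxidase subunit (0.987), Csrp3 (0.985), Smpx (0.984), Tnni3 (0.982) and Pgam2 (0.976). Myl7 was most like Cox6a2 (0.974), Myl4 (0.973), Csrp3 (0.964), Hamp (0.958) and Tnni3 (0.958).

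Over the 9 non-coronary arrays r was high between the 2 atrial chains and not between the 2 ventricular chains, as a description, and the high values rested in large part on 2 arrays. The r of Myl4 with Myl7 was 0.877 and that of Myl2 with Myl3 was -0.234. Myl4 was most like Myh6 (0.977), Csrp3 (0.941), Pgam2 (0.94), Cox6a2 (0.933) and Smpx (0.909), and Myl7 was most like Sln (0.936), Cox6a2 (0.915), Myh6 (0.904), Csrp3 (0.893) and Myl4 (0.877). Without replicate 1 of the descending aorta and replicate 3 of the superior mesenteric artery each of these r with Myl4 or Myl7 was lower. Over the remaining 7 arrays Myl4 had an r of 0.396 with Myl7, 0.93 with Myh6, 0.913 with Pgam2, 0.64 with Cox6a2, 0.403 with Csrp3 and 0.095 with Smpx. Myl7 had an r of 0.542 with Cox6a2, 0.479 with Myh6, 0.347 with Sln and 0.058 with Csrp3. Myl2 varied little over the 9 arrays (SD 0.30) and its likest genes there were C1s1 (0.907), Alb (0.854), Ttr (0.82), Hgsnat (0.801) and Clec4a1 (0.796). Those of Myl3 (SD 0.66) were Pth1r (0.904), Prr32, Slc25a41, Mmab and Atp4b.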

How the data were processed

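The authors deposited a table of log2 values for 35556 probe sets in 12 arrays. The submitters' processing notes name Partek 6.6 and RMA, without role or order, and the normalization was kept as deposited. Scanner files were not used here, and 0 value columns of the table were left aside. Platform annotation gave 21789 probe sets 1 symbol, 1621 several and 12146 none; only the first were used. Of these, 21698 matched the GRCm38.p6 RefSeq gene table, 0 symbols changed, and 999 genes had several probe sets. No source used here gives the genome build of that annotation.

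One mean per vessel was fitted to all 12 arrays with limma 3.58.1 (R 4.3.3, with version 1.17.8 of data.table; 8 residual degrees of freedom), and p-values were Benjamini-Hochberg adjusted over 19938 genes within each of the 6 comparisons at 0.05. The procedure was tested on simulated data with independent normal noise, in which no single array stood apart as some do here. Lists were counted, not tested as sets. Named were the 4 light chains, any other light or sarcomeric heavy chain, up to 5 genes per further list with the largest differences, and the 5 likest genes (unnamed models skipped); others are marked in the text. Members and lists were chosen with earlier results of these data known. Of the listed genes, Rock2 was not analysed here. Alternatives were renewed normalization, centring, a filter on dim genes, probe set choice, array weights, a variance trend, a replicate block, thresholds, joint adjustment, pairwise fits and leaving out arrays. Figures used Python 3.11.15 and matplotlib 3.10.9.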

Additional observations from a re-analysis of the deposited data

How the results depend on the processing

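Each of the 12 coronary differences of the light chains was recomputed under 25 alternatives, and 294 of the 300 results kept their direction and their side of the threshold. The other 6 concerned Myl7 against the descending aorta (5.82, limma adjusted p = 0.0164), which failed a threshold of 0.01 and, with 1 array left out, ranged from 4.94 to 7.35 and failed in 5 cases, so that 3 light chains remained called. With replicate 1 of each aorta and replicate 3 of the superior mesenteric artery left out together, all 4 light chains were called in each coronary comparison. The F test called 3 of 4 without coronary artery replicate 1 or 2. Between descending aorta and superior mesenteric artery 0 to 1 light chains passed with 1 array left out. Differences among the 3 other vessels that never passed changed sign: Myl4, ascending aorta minus superior mesenteric artery (0.10), was -0.33 with array weights and -0.27 to 0.63 with 1 array left out. With 1 array left out, Myl7 ranged from -1.94 to 0.46 for ascending minus descending aorta, from -1.25 to 0.89 for ascending aorta minus superior mesenteric artery and from -0.79 to 1.96 for descending aorta minus superior mesenteric artery, Myl3 from -1.03 to 0.0182 for ascending minus descending aorta and Myl2 from -0.25 to 0.0705 for descending aorta minus superior mesenteric artery. Without these same 3 arrays, ascending minus descending aorta was 0.056 for Myl3 and 0.24 for Myl7, and ascending aorta minus superior mesenteric artery was 0.67 for Myl7. The cause was not tested. In a fit with a replicate block all 4 light chains stayed called in each coronary comparison, Myl7 against the descending aorta at an adjusted p of 0.035 (limma). The numbers gave no sign of pairing: the 18 correlations of same-numbered arrays, as deviations from vessel means, ran from -0.251 to 0.089, and 3 of 12 arrays correlated best with their own number. Counts against the ascending aorta, the descending aorta and the superior mesenteric artery ranged over all alternatives from 2 to 5, 3 to 6 and 3 to 4 for ventricular genes, from 1 to 2, 2 to 2 and 2 to 3 for heavy chains, from 1 to 2, 1 to 2 and 1 to 3 for kinases and phosphatase, from 3 to 3, 3 to 5 and 3 to 3 for transcription factors and from 0 to 1, 0 to 1 and 0 to 2 for other light chains. With 3 arrays per vessel and no detection call, low values and small differences among the other vessels are limited by spread and background.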
